A study of Mus musculus with 6 samples.

Results

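Il2, the gene of the cytokine interleukin-2, and Il2ra, the gene of the alpha chain of its receptor (CD25), were described in activated CD4+ T cells with and without the histone demethylase UTX. The pair was taken by symbol from a table of 4162 genes. Both rows were found, and both passed the low-count filter, as did 4118 genes in all. The genes were chosen because their counts differ between the genotypes in opposite directions, so their genotype differences are given as a description, without a test.

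RNA sequencing was done on spleen cells of 6 mice, 3 labelled B6.WT (WT) and 3 labelled B6.UTX TCD (UTX TCD), whose T cells lack UTX, the product of Kdm6a. In both groups the cells were naive CD4+ T cells isolated with magnetic beads and stimulated for 48 h by antibodies to CD3, fixed to the plate, and to CD28, in solution. The sources used here do not give age, sex, Cre driver or deleted exons, and no unstimulated cells were analysed here.

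Interleukin-2 is secreted by T cells soon after their antigen receptor and CD28 are engaged, and it drives their expansion. It is bound by a receptor of an alpha chain (Il2ra), a beta chain (Il2rb) and a gamma chain shared with other interleukin receptors (Il2rg). The alpha chain raises the affinity for the cytokine and carries no signal itself, while the other two chains signal through JAK1 and JAK3 to STAT5. STAT5 raises transcription of Il2ra and of feedback inhibitors, and interleukin-2 signalling limits transcription of Il2. Regulatory T cells keep CD25 high and make little interleukin-2.

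In GENCODE M21 (GRCm38), Il2 (ENSMUSG00000027720) lies on the minus strand of chromosome 3 from 37120523 to 37125959 with 4 exons, and Il2ra (ENSMUSG00000026770) on the plus strand of chromosome 2 from 11642807 to 11693193, with up to 8 exons in a transcript. The 250 bases before each RefSeq start site (GRCm38.p6) are printed because the factors described further on are known to act on this stretch of Il2. The windows are chr3:37125955-37126204 on the minus strand and chr2:11642542-11642791 on the plus strand. Capitals mark matches to the NFAT core GGAAA, the NF-kB pattern (GGG, 5 bases of any kind, CC) and the TATA box TATAAA on either strand.
Il2: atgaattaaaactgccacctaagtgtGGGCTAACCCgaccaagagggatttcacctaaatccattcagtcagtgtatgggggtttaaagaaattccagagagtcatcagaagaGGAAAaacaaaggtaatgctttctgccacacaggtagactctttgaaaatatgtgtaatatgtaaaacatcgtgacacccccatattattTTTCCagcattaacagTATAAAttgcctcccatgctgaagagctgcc
Il2ra: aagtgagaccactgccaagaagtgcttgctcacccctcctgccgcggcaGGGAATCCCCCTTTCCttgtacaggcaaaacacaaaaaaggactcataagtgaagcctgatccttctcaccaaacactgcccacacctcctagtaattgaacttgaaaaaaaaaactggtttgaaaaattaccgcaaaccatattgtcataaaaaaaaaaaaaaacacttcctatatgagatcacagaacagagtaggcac
The Il2 window held a TATA box from base -31 to base -26 before the start, which 12.4% of 32851 upstream windows hold, and the Il2ra window held none. GGAAA occurred at 2 places in the Il2 window (bases -137 to -133 and -47 to -43) and at 1 in the Il2ra window (-190 to -186), and 55.6% of all windows hold it. The NF-kB pattern covered bases -224 to -215 of Il2 and, in 2 overlapping registers, bases -201 to -191 of Il2ra, next to the GGAAA match, and 45.8% of all windows hold it. The AP-1 pattern TGANTCA (in 6.75% of windows), the STAT pattern TTCNNNGAA (7.02%) and the CRE core TGACG (17.8%) were found in neither window. These are matches of letters, so a mark need not be a known site, and a site that departs from the pattern stays unmarked. No binding was measured.

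The columns of the table summed to between 8363326 and 10288306 counts. Kdm6a had 2891, 2592 and 2479 counts in the WT libraries and 1558, 1960 and 1719 in the UTX TCD libraries, or 283 ± 2.96 against 191 ± 14.4 CPM (counts scaled to a fixed total of the listed genes and between libraries; mean ± SD, n = 3), and fell by 0.56 ± 0.09 on the log2 scale (SE, edgeR adjusted p = 0.0029). Counts of a whole gene take in any exons that a deletion leaves in place. Where the remaining Kdm6a counts of the UTX TCD libraries come from was not tested. On the first principal component UTX TCD replicate 2 lay at 42.9, away from UTX TCD replicates 1 and 3 at 18.9 and 24.5. Of 10 T cell markers only Cd2 was analysed here, so the labelled cell type could not be checked on Cd4 or the CD3 genes. The table appears to have been selected on the genotype difference, though no rule is stated. Of 4118 tested genes 20 had a log2 fold change within 0.1 of 0. At an edgeR adjusted p under 0.05, 68.1% were called changed, 41.1% higher and 27% lower in UTX TCD.

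Il2 was lower in every UTX TCD library than in any WT library. Its counts were 6981, 5223 and 3626 in WT replicates 1, 2 and 3 and 1134, 852 and 670 in UTX TCD replicates 1, 2 and 3. This corresponds to 692, 566 and 412 CPM in WT and 137, 90.1 and 69.8 CPM in UTX TCD libraries. The lowest WT library thus stayed far above the highest UTX TCD library. The means were 557 ± 140 and 98.8 ± 34.3 CPM (SD, n = 3), a 5.63-fold lower level and a log2 fold change of -2.50 ± 0.28 (SE). It was the 62nd most negative of the 4118 tested genes. The libraries of a genotype also spread widely, with a coefficient of variation of 25.2% in WT and 34.7% in UTX TCD.

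Il2ra was higher in every UTX TCD library than in any WT library. Its counts were 20433, 17801 and 16560 in WT and 24212, 35704 and 24978 in UTX TCD libraries, or 2024, 1931 and 1880 CPM against 2918, 3774 and 2602 CPM. WT libraries lay close together, with a coefficient of variation of 3.76%, while the UTX TCD libraries varied by 19.6% and replicate 2 stood above the others. The means were 1945 ± 73.2 and 3098 ± 606 CPM, a 1.59-fold higher level and a log2 fold change of 0.67 ± 0.14, which was 0.50 without UTX TCD replicate 2. It was the 916th most positive of the tested genes. Groups that do not overlap were common in this selected table: in 85.8% of tested genes the groups did not overlap, with 44% lower and 41.8% higher in every UTX TCD library. Since bulk RNA was measured, a change in the share of cells that make a transcript and a change in transcript per cell cannot be told apart.

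**Figure D1:**
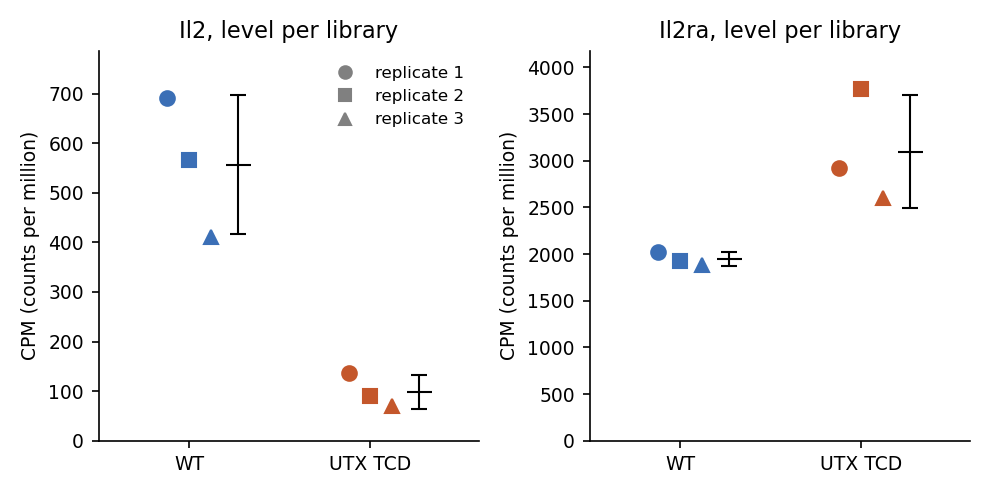
Level of Il2 (left) and Il2ra (right) in CPM for each library, with the mean and SD of 3 libraries in black. Il2 lies between 412 and 692 CPM in WT and between 69.8 and 137 CPM in UTX TCD libraries, and Il2ra between 1880 and 2024 CPM against 2602 and 3774 CPM.

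The ratio of both genes within a library does not depend on how libraries are scaled to each other, which matters in a selected table. Per 1000 Il2ra counts there were 342, 293 and 219 Il2 counts in WT replicates 1, 2 and 3, and 46.8, 23.9 and 26.8 in UTX TCD replicates 1, 2 and 3. All WT libraries lay above all UTX TCD libraries. On the log2 scale the ratio averaged -1.84 ± 0.33 in WT and -5.01 ± 0.52 in UTX TCD (SD, n = 3), a difference of -3.17 ± 0.35 (SE), or a 9.01-fold lower ratio. With any 1 library left out the difference was between -3.47 and -2.98.

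To compare the genes with each other, CPM was divided by the length of their exons, 1144 bases for Il2 and 5711 for Il2ra. Il2 then stood at 604, 495 and 360 CPM per kilobase in the WT libraries and Il2ra at 354, 338 and 329, so that Il2 was the higher of the pair in each. In UTX TCD libraries the order was the opposite, with 119, 78.7 and 61.0 CPM per kilobase for Il2 and 511, 661 and 456 for Il2ra. Il2ra over Il2 per kilobase was 0.59, 0.68 and 0.91 in WT and 4.28, 8.39 and 7.47 in UTX TCD libraries. The WT order depended on the length used: with the principal transcript of 4412 bases for Il2ra, a choice added after the data were seen, the WT ratios were 0.76, 0.88 and 1.18, and those of UTX TCD 5.54, 10.9 and 9.67. Among 4127 genes with a length, Il2 ranked 64th in WT and 712th in UTX TCD by level per kilobase, and Il2ra 111th and 43rd.

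**Figure D2:**
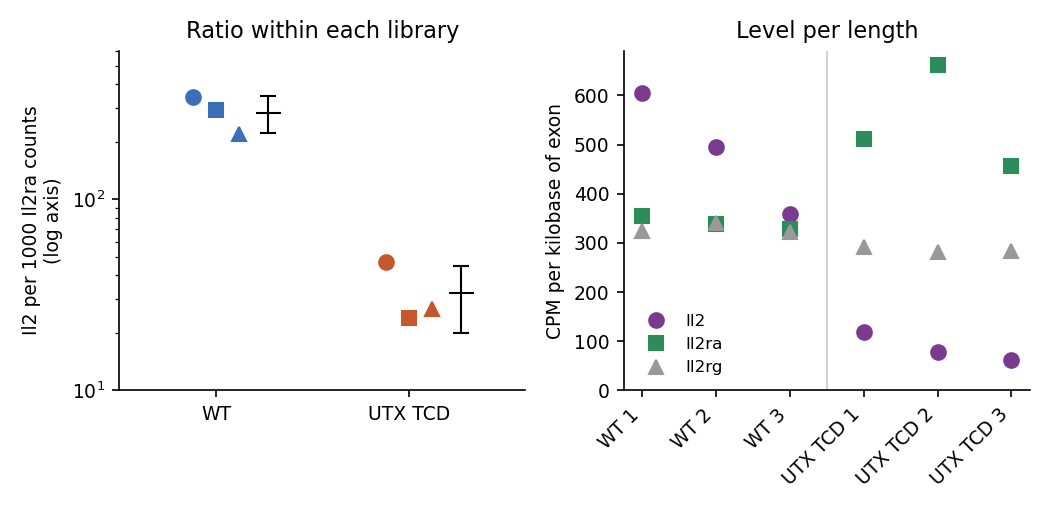
Left, Il2 counts per 1000 Il2ra counts in each library on a log axis, with mean and SD in black (circle, square and triangle for replicates 1, 2 and 3). Right, level per kilobase of exon of Il2, Il2ra and Il2rg in each library: Il2 is above Il2ra in the 3 WT libraries and below both receptor genes in the 3 UTX TCD libraries.

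The other receptor genes of the family did not move with Il2ra as a group. Of 12 cytokine and receptor genes of the common gamma chain family 6 had a row and 5 were tested. Of these 2 rose and 3 fell, where 41.1% of all tested genes rose and 27% fell. Their median log2 fold change was -0.21 where all tested genes had -0.15. Il2rg, the shared signalling chain, had 775, 813 and 771 CPM in WT and 698, 671 and 676 CPM in UTX TCD libraries. The groups did not overlap, and Il2rg fell by 0.21 ± 0.07 (edgeR adjusted p = 0.038), a small change beside that of the alpha chain. Per kilobase, Il2ra over Il2rg was 1.09, 0.99 and 1.02 in WT and 1.75, 2.35 and 1.61 in UTX TCD libraries. With these exon lengths the alpha and gamma chain genes were near the same level in WT cells, and the alpha chain gene was above the gamma chain gene in each UTX TCD library. Il2rb, the other signalling chain, was not analysed here. In GENCODE M21 the spans of Il2ra, Il2rg and Il4ra overlap Gm37881, Gm20489 and Gm44876, and how reads shared with these were counted is not stated.

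Il7r, the interleukin-7 receptor alpha chain that naive and memory T cells carry, had the largest rise of those tested. It had 30.9, 18 and 19.5 CPM in WT and 56.2, 95.7 and 52.3 CPM in UTX TCD libraries (1.57 ± 0.30, edgeR adjusted p = 0.0057). Il4ra, the interleukin-4 receptor alpha chain, rose by 0.35 ± 0.10 (0.023). Il21r, the interleukin-21 receptor, fell by 0.42 ± 0.10 (0.011), and Il15ra, which binds interleukin-15 and is the closest relative of Il2ra, fell by 0.36 ± 0.13 (0.043). Il21, a cytokine gene beside Il2, had 2, 5 and 8 counts in WT and 20, 36 and 9 in UTX TCD libraries and was too low for the test. Most of these calls were close to the threshold. Il2rg did not pass without WT replicate 1 (-0.22), 2 (-0.19) or 3 (-0.22) or UTX TCD replicate 3 (-0.20), or with RLE (-0.16) or upper-quartile scaling (-0.13). Il4ra did not pass without WT replicate 1 (0.40), 2 (0.29) or 3 (0.35), and Il21r without WT replicate 2 (-0.41). Il15ra did not pass with WT replicate 1 (-0.36), 2 (-0.45) or 3 (-0.29) or UTX TCD replicate 1 (-0.27) or 3 (-0.37) left out, with column totals (-0.33), RLE (-0.32) or upper-quartile scaling (-0.28), or in DESeq2 (-0.32). Rising members were 1 without WT replicate 1 or 2, and falling members 1, 0, 1 and 1 without WT replicates 1, 2 and 3 and UTX TCD replicate 3.

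Genes that carry the receptor's signal were measured in part. Of 35 signalling genes 14 were tested, 8 rose, 2 fell and 4 did not pass, at a median of 0.34, in a table where 41.1% of tested genes rose and 27% fell. Jak1, the kinase bound to the beta chain, had 1122 to 1154 CPM in WT and 1355 to 1416 CPM in UTX TCD libraries and rose by 0.27 ± 0.07 (edgeR adjusted p = 0.016). Stat5b, 1 of the 2 STAT5 genes, rose by 0.40 ± 0.10 (0.015). Its partner Stat5a had 585, 418 and 391 CPM in WT and 467, 458 and 341 CPM in UTX TCD libraries, with overlapping groups and a log2 fold change of -0.14 ± 0.18 (0.47), and this value was 0.06 without WT replicate 1. Mapk3, the kinase ERK1, rose from 60.7 ± 6.69 to 137 ± 19.2 CPM (1.17 ± 0.13, 0.0013), and Pik3cd, the leukocyte PI3 kinase subunit p110 delta, by 0.74 ± 0.13 (0.0051). Rictor, a subunit of mTORC2, rose by 0.49 ± 0.10. Jak3, bound to the gamma chain, was not analysed here. Rising genes of the list were 5, 4 and 5 without WT replicates 1, 2 and 3, and falling genes 0 each time. Falling genes were 4 and 5 with UTX TCD replicate 1 and 2 left out, 0 with upper-quartile scaling and 5 when the scaling was gap-centred. Jak1 did not pass without WT replicate 1 (0.26), 2 (0.27) or 3 (0.28), nor Stat5b without WT replicate 2 (0.34) or 3 (0.38).

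Genes that interleukin-2 and STAT5 are known to induce went both ways. Of 39 such genes 26 were tested, 13 rose, 6 fell and 7 did not pass, at a median of 0.55. Over all tested genes 41.1% rose and 27% fell, at a median of -0.15. Of the rising genes, Foxp3 and Tnfrsf18 are also counted among the regulatory T cell markers described further on. Socs2, a STAT5-induced inhibitor of cytokine signalling, had 81.6, 85.4 and 93.8 CPM in WT and 284, 371 and 281 CPM in UTX TCD libraries. The groups were far apart, and Socs2 rose by 1.84 ± 0.13 (edgeR adjusted p = 4.6e-04). Cish, another STAT5-induced inhibitor, had 269, 170 and 185 CPM in WT and 330, 446 and 263 CPM in UTX TCD libraries. It rose by 0.74 ± 0.23 (0.027), but WT replicate 1 lay above UTX TCD replicate 3. Socs3, an inhibitor of JAK kinases, rose by 0.96 ± 0.26 (0.017). Bcl2, which protects T cells from apoptosis, rose from 209 ± 13.1 to 738 ± 171 CPM (1.82 ± 0.16, 5.9e-04).

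Other genes of the same list fell. Tnfrsf1b, the TNF receptor 2 gene, had 237, 249 and 246 CPM in WT and 119, 102 and 127 CPM in UTX TCD libraries (-1.07 ± 0.10, edgeR adjusted p = 6.6e-04). Il1rl1, the receptor of interleukin-33, fell from 3.14 ± 0.98 to 0.29 ± 0.15 CPM, and Ccne1, a cyclin of the G1 to S transition, by 0.51 ± 0.10 (0.0066). Socs1, Myc and Prdm1 were not analysed here. The list held 9, 5 and 11 rising genes without WT replicates 1, 2 and 3 and 11 without UTX TCD replicate 2. Cish did not pass without WT replicate 2 (0.61) or 3 (0.65) or UTX TCD replicate 2 (0.50), and Socs3 not without WT replicate 1 (0.98) or 2 (0.81).

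Genes that interleukin-2 and STAT5 are known to repress were also measured. Of 10 such genes 9 were tested, 7 rose, 1 fell and 1 did not pass, at a median of 0.80. All tested genes had a median of -0.15, with 41.1% rising and 27% falling. Klf2, a transcription factor of resting T cells, had 31.9, 33.1 and 49.8 CPM in WT and 116, 188 and 209 CPM in UTX TCD libraries. The groups did not overlap, and Klf2 rose by 2.16 ± 0.26 (edgeR adjusted p = 0.0015). S1pr1, the receptor for exit from lymph nodes, rose by 2.61 ± 0.40. Lef1, a factor of naive cells, and Il6st, the signalling chain gp130, rose by 0.71 ± 0.08 and 0.83 ± 0.09. Bcl6, the T follicular helper factor repressed by STAT5, had 60.05 to 68.2 CPM in WT and 30.3 to 41.1 CPM in UTX TCD libraries and fell by 0.78 ± 0.15 (0.0055). Rises outnumbered falls in the repressed list (7 and 1) and in the induced list (13 and 6).

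**Figure D3:**
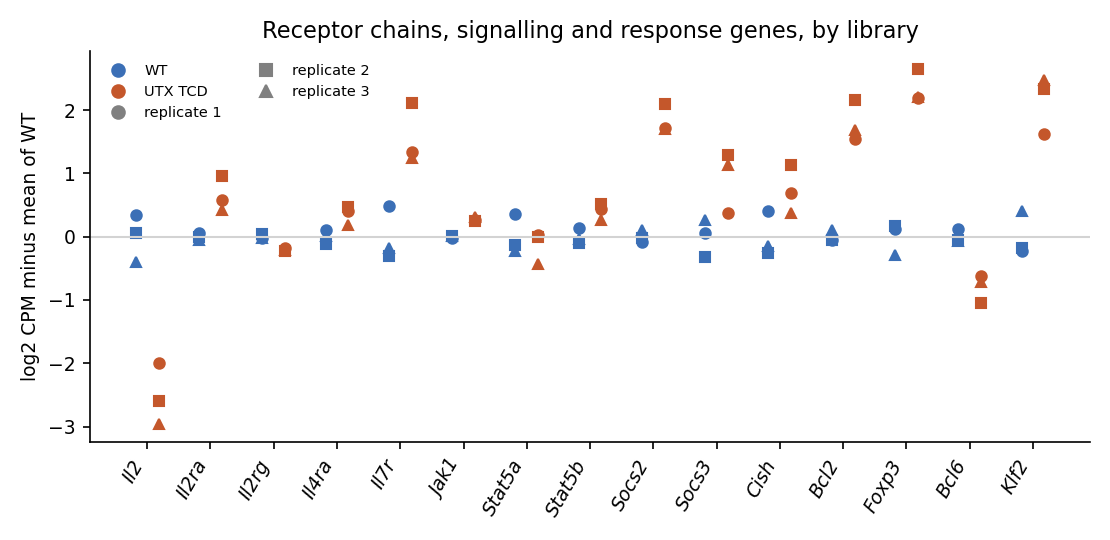
Log2 CPM of Il2, Il2ra and genes of the receptor family, signal and response in each library, minus the mean of the WT libraries (circle, square and triangle for replicates 1, 2 and 3; blue WT, orange UTX TCD). Il2 lies below 0 in the 3 UTX TCD libraries, Socs2, Bcl2, Foxp3 and Klf2 lie above all WT libraries, and the groups of Stat5a and Cish overlap.

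Upstream of Il2, genes of T cell receptor and CD28 signalling changed in both directions. Of 37 such genes 16 were tested, 9 rose, 3 fell and 4 did not pass, at a median of 0.34. Over all tested genes 41.1% rose and 27% fell. Cd28, the costimulatory receptor that the soluble antibody engages, had 849, 1004 and 1092 CPM in WT and 1634, 1854 and 1753 CPM in UTX TCD libraries (0.83 ± 0.11, edgeR adjusted p = 0.0020). Ppp3ca, a catalytic subunit of calcineurin, which activates NFAT, rose from 63.4 ± 5.52 to 150.4 ± 19.97 CPM (1.25 ± 0.13, 7.7e-04). Rasgrp1, an activator of Ras, rose by 0.84 ± 0.12, and Txk, a kinase of the Tec family, by 0.99 ± 0.16. Prkcq, the kinase PKC theta that leads to NF-kB, rose by 0.36 ± 0.10 (0.017).

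Of the inhibitors of the pathway in the list, 4 were tested and went both ways. Cblb, a ubiquitin ligase that restrains T cell activation, had 901, 675 and 831 CPM in WT and 1725, 2487 and 1416 CPM in UTX TCD libraries (1.23 ± 0.21, edgeR adjusted p = 0.0043). Dgka, which removes the second messenger diacylglycerol, rose by 0.70 ± 0.12 (0.0041). Pdcd1, the gene of the inhibitory receptor PD-1, had 468, 546 and 466 CPM in WT and 213, 102 and 221 CPM in UTX TCD libraries and fell by 1.46 ± 0.27 (0.0051). Dgkz, a relative of Dgka, was at -0.24 ± 0.12 with overlapping groups (0.092), and passed when the scaling was gap-centred (-0.32) or UTX TCD replicate 3 was left out (-0.37). Pdcd1 and Dgkz are named beyond the rule for named genes, after their values were seen. Lat, the adaptor that links the receptor to calcium and Ras signals, fell by 0.44 ± 0.08 (0.0056). Lck, the first kinase of the pathway, was at -0.13 ± 0.07 (0.12), and Zap70 was not analysed here. Lck passed with UTX TCD replicate 2 left out (-0.13) and when the scaling was gap-centred (-0.21), where the list held 6 falling genes. Prkcq did not pass without WT replicate 1 (0.39), 2 (0.34) or 3 (0.35).

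Transcription factors of the Il2 and Il2ra genes changed in both directions. Of 43 factors 27 were tested, 9 rose, 8 fell and 10 did not pass, at a median of -0.19. These counts were near the share over all tested genes, of which 41.1% rose and 27% fell. Nfatc2, the NFAT factor of the calcineurin pathway, had 334, 321 and 317 CPM in WT and 257, 222 and 240 CPM in UTX TCD libraries. It fell by 0.43 ± 0.09 (edgeR adjusted p = 0.0066). Jund, an AP-1 subunit, fell by 0.56 ± 0.08 (0.0027). Rel, the NF-kB subunit c-Rel, had 1025, 1086 and 951 CPM in WT and 914, 1252 and 728 CPM in UTX TCD libraries, with overlapping groups and a log2 fold change of -0.08 ± 0.18 (0.67). Leaving out UTX TCD replicate 3 gave 0.08, and leaving out replicate 2 gave -0.32, which passed. Egr1 was at -0.19 ± 0.09 (0.082), and passed with gap-centred scaling (-0.26). Egr2, a factor linked to T cell anergy, fell by 0.54 ± 0.17 (0.027). Nfatc1, Fos and Jun were not analysed here. The nuclear receptors of the NR4A family, induced by antigen receptor signals, went both ways: Nr4a2 fell by 0.69 ± 0.12 (edgeR adjusted p = 0.0051), Nr4a3 rose by 0.65 ± 0.19 (0.021), and Nr4a1 was at -0.23 ± 0.09 (0.052). Nr4a1 and Nr4a3 were chosen after their values were seen. Nr4a3 did not pass without WT replicate 1 (0.68) or 2 (0.57), and Nr4a1 passed without UTX TCD replicate 2 (-0.27), with gap-centred scaling (-0.31) and without the low-count filter (-0.24).

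Crem, whose product represses Il2 transcription in T cells, had 122, 102 and 109 CPM in WT and 196, 304 and 154 CPM in UTX TCD libraries. All UTX TCD libraries were above all WT libraries, and Crem rose by 0.98 ± 0.23 (edgeR adjusted p = 0.011). Crem did not pass when the adjustment ran over every protein-coding gene of the annotation (0.061). Ikzf1, the gene of Ikaros, which also represses Il2, rose by 0.24 ± 0.09 (0.042), and Ikzf3, its relative Aiolos, from 96.9 ± 16.0 to 213 ± 13.2 CPM (1.13 ± 0.13, 0.0012). Ets1 and Satb1, a chromatin organiser of T cells, are not grouped here with these repressors. Ets1 rose from 1017 ± 77.9 to 2340.4 ± 439.8 CPM (1.20 ± 0.14, 0.0013), and Satb1 by 1.47 ± 0.28 (0.0057). The factors named in this paragraph are rising ones of a list with 9 rising and 8 falling genes. The part of any of these factors in the Il2 difference was not tested. Ikzf1 did not pass without WT replicate 1 (0.19), 2 (0.26) or 3 (0.25), when UTX TCD replicate 3 was left out (0.18) or the scaling was gap-centred (0.16), and Egr2 not without WT replicate 1 (-0.49) or 2 (-0.52) or UTX TCD replicate 3 (-0.54). Rising factors were 4, 4 and 6 without WT replicates 1, 2 and 3, and falling factors 3, 3 and 4. With UTX TCD replicates 2 and 3 left out in turn, 13 and 5 factors fell.

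Proteins that bind Il2 mRNA set how long it lasts. Of 14 of their genes 7 were tested, 2 rose, 0 fell and 5 did not pass, at a median of -0.19. Among all tested genes 41.1% rose and 27% fell. Zfp36, the gene of tristetraprolin, which destabilises cytokine mRNAs, had 160, 151 and 169 CPM in WT and 181, 190 and 202 CPM in UTX TCD libraries (0.26 ± 0.09, edgeR adjusted p = 0.032). Zc3h12d rose by 0.26 ± 0.09 (0.030). Its relative Zc3h12a, the gene of the endonuclease Regnase-1, was at -0.20 ± 0.17 with overlapping groups (0.27). Neither rise passed without WT replicate 1 (Zfp36 0.25, Zc3h12d 0.24), 2 (0.21, 0.26) or 3 (0.29, 0.28) or with gap-centred scaling (0.18, 0.19), and that of Zfp36 also not without UTX TCD replicate 3 (0.21). Genes called lower numbered 2 with UTX TCD replicate 1 left out or the scaling gap-centred.

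**Figure D4:**
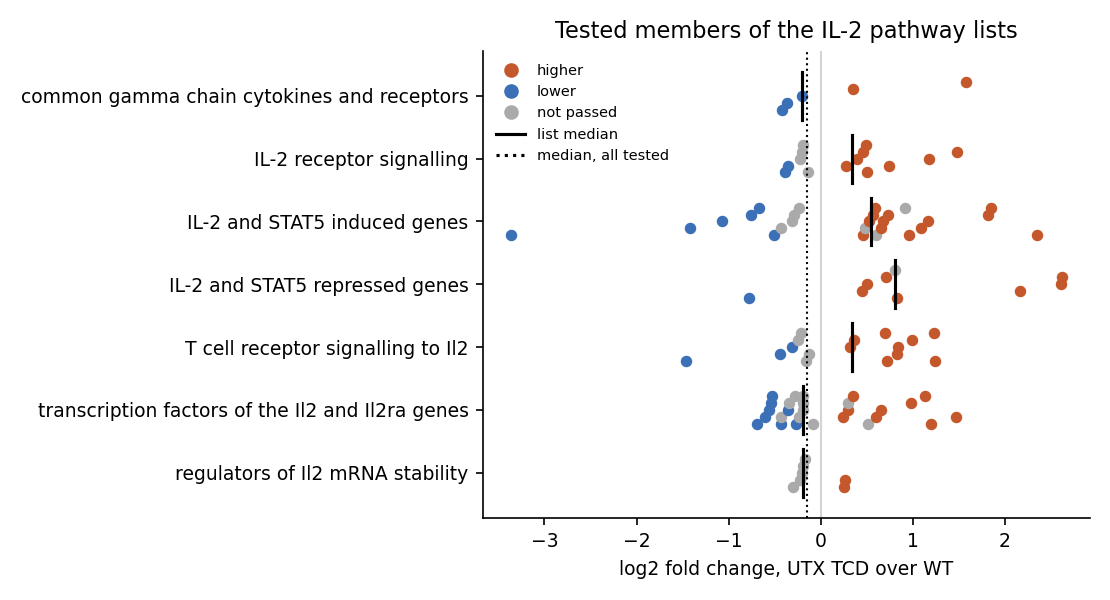
Log2 fold change of the tested members of each gene list (points; orange called higher, blue called lower, grey not passed at an edgeR adjusted p under 0.05), with the list's median (bar) and the median of all tested genes (dotted, -0.15). Il2 and Il2ra are in none of these lists.

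The nearest genes on the chromosome did not follow a single direction. Of the 20 protein-coding genes nearest to Il2, 10 on each side, 6 were tested, of which 4 rose and 1 fell. Over all tested genes 41.1% rose and 27% fell. The falling gene was Adad1, a gene of male germ cells, which is the next gene to Il2 and lies on the opposite strand, 9.20 kb away in RefSeq. It was low, with 198, 93 and 65 counts in WT and 54, 39 and 19 in UTX TCD libraries, and fell by 1.57 ± 0.51 (edgeR adjusted p = 0.029). By CPM the 6 libraries stood in the same order for Adad1 as for Il2. There were 28.4, 17.8 and 17.9 Adad1 counts per 1000 Il2 counts in WT and 47.6, 45.8 and 28.4 in UTX TCD libraries. In GENCODE M21 the genes overlap in span, with 0 exon bases in common. The annotation and strand setting of the counting are not stated in the sources used here. Whether reads of one gene were counted for the other was not tested. Adad1 did not pass without WT replicate 1 (-1.06) or 2 (-1.70) or UTX TCD replicate 2 (-1.57) or 3 (-1.22).

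Further from Il2, 4932438A13Rik, 67.7 kb away, rose by 0.39 ± 0.09, Bbs7 by 1.10 ± 0.20, Ankrd50 by 0.38 ± 0.09 and Gm5148, at 4.48 ± 0.96 CPM in UTX TCD, by 2.00 ± 0.42. Fgf2, a fibroblast growth factor gene, was at -0.37 ± 0.20 (edgeR adjusted p = 0.11). Around Il2ra 7 of 20 neighbours were tested, of which 3 rose (Gata3, Itih5 and Prkcq) and 3 fell (Taf3, Il15ra and Pter). The shares over all tested genes were 41.1% and 27%. The nearest tested neighbour was Il15ra, 11.98 kb away, at a log2 fold change opposite in sign to that of Il2ra. Rising neighbours of Il2 were 2 without WT replicate 2. 4932438A13Rik did not pass without WT replicate 2 (0.38) and Ankrd50 not without WT replicate 1 (0.39), 2 (0.39) or 3 (0.33). Around Il2ra the rising and falling neighbours were 1 and 0, 0 and 0, and 0 and 0 without WT replicates 1, 2 and 3, and 2 and 1, and 3 and 0, with UTX TCD replicates 1 and 3 left out. The falling ones were 0 with RLE, upper-quartile or column-total scaling, and 1 in DESeq2.

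**Figure D5:**
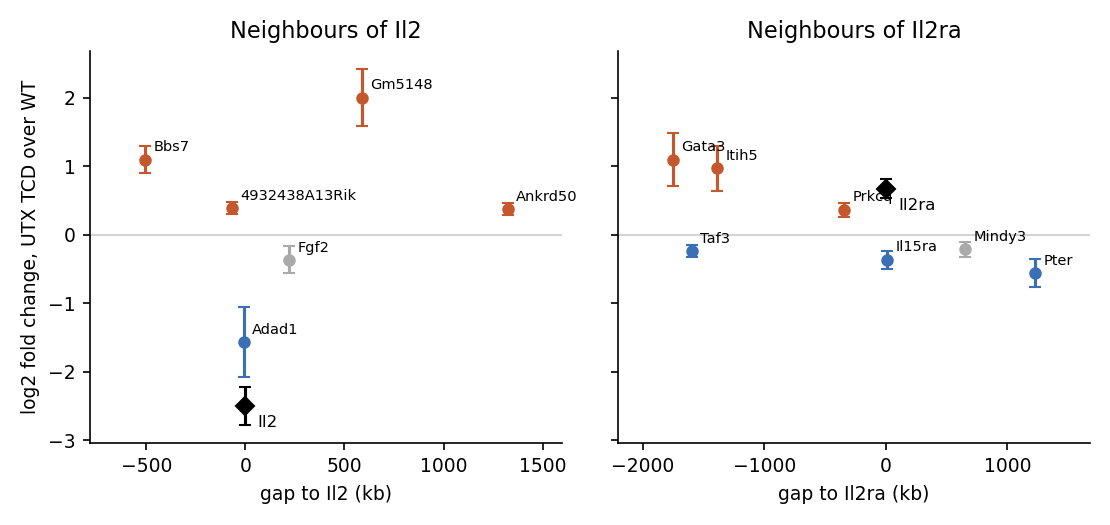
Log2 fold change (± SE) of the tested neighbours of Il2 (left) and Il2ra (right) against their gap to the gene in kilobases, with the gene itself as a black diamond (orange called higher, blue called lower, grey not passed). Adad1, 9.20 kb from Il2, is lower, and Il15ra, 11.98 kb from Il2ra, is lower while Il2ra is higher.

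Genes with a similar pattern over the 6 libraries were ranked by the root mean square difference of their centred log2 CPM. For Il2 the nearest were P3h2, a collagen prolyl hydroxylase (0.19), Rai14 (0.23), Ehd2 (0.25), Mpzl2 (0.28) and Hif3a, a member of the hypoxia-inducible factor family (0.30). Rai14 had 64.8, 42.7 and 26.1 CPM in WT and 9.04, 4.86 and 5.21 CPM in UTX TCD libraries, a wide spread in WT like that of Il2. For Il2ra they were Lrrc8c, a subunit of a volume-regulated anion channel (0.03), Dcaf17 (0.04), Slc25a36, a mitochondrial carrier (0.05), Elmod3 (0.05) and Bbx (0.05). Lrrc8c had 224, 225 and 212 CPM in WT and 325, 420 and 304 CPM in UTX TCD libraries, with the same high value in UTX TCD replicate 2. The measure includes the genotype difference on which the table appears to have been selected, and its prior count of 2 shrinks the differences of low genes. P3h2 was low, with 24, 26 and 12 counts in WT and 4, 2 and 1 in UTX TCD libraries. Mpzl2 had 37, 30 and 22 counts in WT and 4, 6 and 2 in UTX TCD libraries.

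Markers of regulatory T cells changed in both directions. Of 12 such markers 8 were tested, where 41.1% of all tested genes rose and 27% fell. Of the 8, 6 rose and 2 fell (Nrp1 by 1.47 ± 0.15 and Capg by 0.47 ± 0.11; edgeR adjusted p = 7.8e-04 and 0.013), and the call of Capg was lost without WT replicate 2 (-0.42). None was at 0 in any group, and their summed level was 1107 to 1214 CPM in WT and 1354 to 1783 CPM in UTX TCD libraries. The largest terms of this sum were Izumo1r, Capg and Tnfrsf18. Their means were 330, 322 and 293 CPM in WT and 522, 233 and 440 CPM in UTX TCD libraries. Foxp3, the factor that defines these cells, had 5.84, 6.07 and 4.43 CPM in WT and 24.7, 34.0 and 24.9 CPM in UTX TCD libraries (2.35 ± 0.23, edgeR adjusted p = 7.6e-04). Ikzf2, the gene of Helios, rose from 10.8 ± 4.39 to 64.5 ± 31.1 CPM, and Gpr83 from 45.9 ± 6.26 to 150 ± 17.5 CPM. In both genotypes Foxp3 was far below Il2ra in CPM, and UTX TCD replicate 2 had the highest value of both genes. The part of these cells in the Il2 and Il2ra differences was not tested. Of the markers of other cells that a bead selection can leave, Cd8b1 of CD8 T cells (1 of 2 markers) had 11.6 to 14.5 CPM in WT and 31.5 to 56.2 CPM in UTX TCD libraries. The 3 B cell markers analysed, of 10, summed to 458 to 554 CPM in WT and 488 to 786 CPM in UTX TCD libraries, and most of this was Ighm, whose groups overlapped (0.38 ± 0.17, edgeR adjusted p = 0.074). Ighm passed in DESeq2 (0.42) and without UTX TCD replicate 1 (0.54). Fcer2a, the gene of CD23, was the B cell marker called, and it fell from 21.2 ± 0.34 to 11.4 ± 4.46 CPM (-0.89 ± 0.29, 0.029), a call lost without WT replicate 1 (-0.88), 2 (-0.91) or 3 (-0.89). The 2 NK cell markers, of 6, summed to 23 to 59.4 CPM in WT and 25.7 to 53.5 CPM in UTX TCD libraries. Most of this was Eomes, which overlapped between the groups (0.13 ± 0.41, edgeR adjusted p = 0.76), while Klrd1 had 1.09 to 1.82 CPM in WT and 2.77 to 4.33 CPM in UTX TCD libraries and rose by 1.40 ± 0.36 (0.015). Klrd1 did not pass without WT replicate 1 (1.24) or 2 (1.34). Their part in the result was not tested either. Markers of monocytes, dendritic cells, neutrophils, erythroid cells and platelets were not analysed here.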

How the data were processed

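Gene expression was measured by RNA sequencing in 6 libraries, 3 WT and 3 UTX TCD, each from 1 mouse by the series' design text. The deposited table gives raw read counts for each gene, not normalized. FastQC, HISAT2 and HTSeq were used on genome build mm10, per the submitters' processing notes. Versions, annotation, strand setting and the rule that selected the 4162 listed genes are not stated in the sources used here. Column totals of listed genes are not library depths, so CPM runs higher than in a full library and adjusted p-values count too few tests.

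All tested genes were fitted together in edgeR 4.0.16 under R 4.3.3, by its quasi-likelihood test (genotype as the only term, TMM scaling, minimum count 10 and minimum total count 15, which left out 44 genes), with Benjamini-Hochberg adjustment and a threshold of 0.05. A standard error is the size of the log2 fold change over the root of its F statistic. Log2 CPM used a prior count of 2. The procedure was tested on simulated data with most genes unchanged and the same spread in both groups. This does not cover the selection of the table or the unequal spread of the groups. The biological coefficient of variation was 8.01% in WT and 22.1% in UTX TCD libraries. RLE, upper-quartile, column-total and gap-centred scaling (which puts the emptiest point of the fold changes, 0.07, at 0), no filter, DESeq2 1.42.0, limma 3.58.1 (voom), a replicate block and leaving out each library were tried.

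The members and gene lists were chosen with earlier results of these data known. Named genes are both members, a panel of pathway genes, from each list the called members with the smallest p (up to 6), tested neighbours, and the 5 nearest profiles of each member. Exon lengths come from GENCODE M21 and upstream sequences and neighbours from RefSeq, GRCm38.p6, where both members matched by symbol.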

Additional observations from a re-analysis of the deposited data

How the results depend on the processing

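The difference of Il2 stayed between -2.79 and -2.30 and that of Il2ra between 0.50 and 0.78 on the log2 scale under the alternatives run, including each library left out, and the Il2 to Il2ra log2 ratio between -3.47 and -2.98 with 1 library left out. Per kilobase, Il2ra over Il2 in WT averaged 0.73, and 0.94 with the principal transcript's length. Of all tested genes 1692 were higher and 1111 lower (60.4% higher), against 1742 and 725 with upper-quartile scaling (70.6%), 1547 and 1832 with gap-centred scaling (45.8%), 630 and 296 when the adjustment ran over every protein-coding gene of the annotation, and 730 to 1824 and 351 to 1458 with 1 library left out.

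Under that wider adjustment, higher and lower members were 1 and 0 in the common gamma chain list, 4 and 0 in receptor signalling, 4 higher among STAT5-induced genes, 3 and 3 among transcription factors, 0 higher among mRNA stability genes, 2 and 0 among neighbours of Il2 and 0 and 0 among those of Il2ra. Of 84 named genes 26 lost their call under it. They were Il2rg, Il4ra, Il15ra, Il21r, Jak1, Stat5b, Cish, Socs3, Prkcq, Crem, Egr2, Ikzf1, Nr4a3, Zfp36 and Zc3h12d. Of neighbours and cell markers they were also 4932438A13Rik, Adad1, Ankrd50, Gata3, Itih5, Pter, Taf3, Capg, Fcer2a and Klrd1, and of nearest profiles Elmod3. Lower members became 1 (gamma chain list, RLE, upper-quartile or replicate block), 0 and 5 (receptor signalling, upper-quartile and gap-centred), 6 (T cell receptor signalling, gap-centred), 2 (mRNA stability, gap-centred, with 0 higher), and for neighbours of Il2ra 0 (RLE, upper-quartile, column totals) and 1 (DESeq2).

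With 1 library left out, higher and lower members ranged from 1 to 3 and 0 to 3 in the gamma chain list, 4 to 8 and 0 to 5 in receptor signalling, 5 to 15 and 5 to 7 among induced genes, 7 to 9 and 2 to 4 in T cell receptor signalling, 4 to 9 and 3 to 13 among transcription factors, 0 to 2 and 0 to 2 for mRNA stability, 2 to 5 and 0 to 1 around Il2, and 0 to 3 and 0 to 3 around Il2ra. Rel changed sign with upper-quartile scaling (0.0012) and ranged from -0.32 to 0.084 with 1 library left out, Stat5a ranged from -0.25 to 0.057, and Eomes from -0.13 to 0.66. The cause of these changes was not tested.

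The labels number the mice 1 to 3 in both groups, but same-numbered libraries did not all deviate from their group means together (correlations 0.28, -0.28 and 0.18), and of the 3 WT libraries 1 correlated best with its own number, so the fit with the replicate block is an alternative only. It called 1607 genes higher and 1026 lower. In it the standard error of Il2 was 0.11 in place of 0.28, at a log2 fold change of -2.52, and Il2ra was at 0.65. Lower members were then 1 in the gamma chain list, 2 around Il2 and 1 around Il2ra, the mRNA stability list had 1 higher member, and the transcription factor list 7 in place of 9. Il2rg (-0.21), Il15ra (-0.37), Ikzf1 (0.24), Taf3 (-0.24) and Zc3h12d (0.26) did not pass in this fit, and Fgf2 (-0.35) and Ighm (0.36) passed.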
